A study of Harpegnathos saltator with 36 samples.

Results

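In the ovaries of the ant Harpegnathos saltator, 80 genes that were near the limit of detection in the brain took a larger share of the reads in every non-reproductive ovary than in any reproductive one. These genes were chosen by their measured values. The rule took the genes with a mean under 1 CPM (counts scaled to a common library total) over 12 brain libraries, computed for each a gap in the ovary, and kept the 80 genes with the largest gap of 12654 in the tables. The gap is the lowest log2(CPM + 1) of the worker and revertant ovaries minus the highest of the gamergate ovaries, so a gap above 0 means that the castes did not overlap. All 80 are listed as protein coding. Only 7 carry a symbol other than a LOC number and 3 more a protein name, so most are given here by number alone.

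Gamergates are workers that won the duels which follow the loss of the queen and became egg-laying pseudo-queens, here after 3 months in a colony without a queen. Revertants were gamergates that were isolated for 4 weeks and then spent 2 months in a colony with established reproductives, where they fell back to the worker state. Workers were non-reproductive nestmates of the gamergates. All were adult females about 6 months old, and each library came from the brain or the ovary of 1 ant, with 4 libraries per caste and tissue. Revertants came from another colony than both other castes, so for them caste and colony cannot be told apart.

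The ant ovary is a bundle of tubes, the ovarioles. Each begins with a germarium, where germ line stem cells divide, and goes on as a chain of growing egg chambers in which nurse cells and follicle cells feed and wrap an oocyte. Gamergates have long chains that end in mature oocytes, whereas worker and revertant ovaries are small, with a germarium and at most early chambers, beside the sheath muscle, the ducts and the tracheae that every ovary has. CPM values are a share of the RNA of the whole organ, so fewer cells of a type and less RNA per cell cannot be told apart.

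Total counts ranged from 5354569 to 23882325 in gamergate, from 1663266 to 7391217 in revertant and from 1863023 to 7519671 in worker ovaries, and from 1339043 to 12917125 in the brains. All gamergate ovaries, revertant ovaries 2 and 3 and worker ovary 3 held more than 3500000 counts, and the other 5 held fewer. The 3 larger non-reproductive libraries stood apart from the 5 smaller ones in some genes. The maternal gene exu, needed to place messages in the oocyte, reached 1408, 1500 and 1921 CPM in revertants 2 and 3 and worker 3, against 378 to 682 CPM in the 5 smaller libraries, and cad, a homeobox gene that eggs are loaded with, reached 77.3, 68.1 and 64.1 CPM, against 2.40 to 17.0 CPM. The germ line gene BicC was split likewise, at 529 to 801 CPM against 128 to 222 CPM. In the germ line genes vas, AGO3 and orb the larger and smaller libraries overlapped. The germ line genes vas, AGO3, exu, orb and BicC summed to 2321 to 4505 CPM in all ovaries and to 162 to 204 CPM in the brains. The nervous genes, among them Syn and brp, summed to 2775 to 4267 CPM in the brains and to 25.2 to 129 CPM in the ovaries. Fat body genes, among them apolpp and Vg, were uneven. They summed to 9024 CPM in revertant ovary 1 and 4722 CPM in worker ovary 1. The other revertant and worker ovaries held 43.4 to 1473 CPM, and gamergate ovaries 798 to 2755 CPM. The haemocyte genes Hml and PPO summed to 93.8 to 126 CPM in gamergate, 76.6 to 255 CPM in revertant and 107 to 318 CPM in worker ovaries. The tissue these reads came from was not tested.

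The gap of the 80 genes ran from 0.18 to 2.11 on the log2(CPM + 1) scale, with a median of 0.43. It was 1 or more in 11 genes and under 0.5 in 49. Of the 2729 genes under the brain limit, 115 (4.21%) had a gap above 0, and of all genes 2475 (19.6%) did. The last gene inside the limit of 80 was LOC105188278, at 0.178, and the first ones outside were LOC105185202 at 0.175, LOC105183314 at 0.173 and LOC112589370 at 0.170, so the limit falls in a continuous run of values. None of the genes that the rule leaves out by name was among the 80.

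Many of the 80 were measured by few reads. In the 8 worker and revertant ovaries 22 of the 80 genes had at least 10 reads in every library, while 29 had fewer than 3 reads in at least one. With a floor of 3 counts, which is 1.80 CPM in the smallest ovary library and 0.126 CPM in the largest, low levels are resolved less finely in the smaller libraries. When all libraries were thinned by one random draw to the smallest total of their tissue, 32 of the 80 genes still had a gap above 0 and 30 were still among the 80 largest. The genes described in most detail are therefore those with the largest gaps and the most reads.

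**Figure D1:**
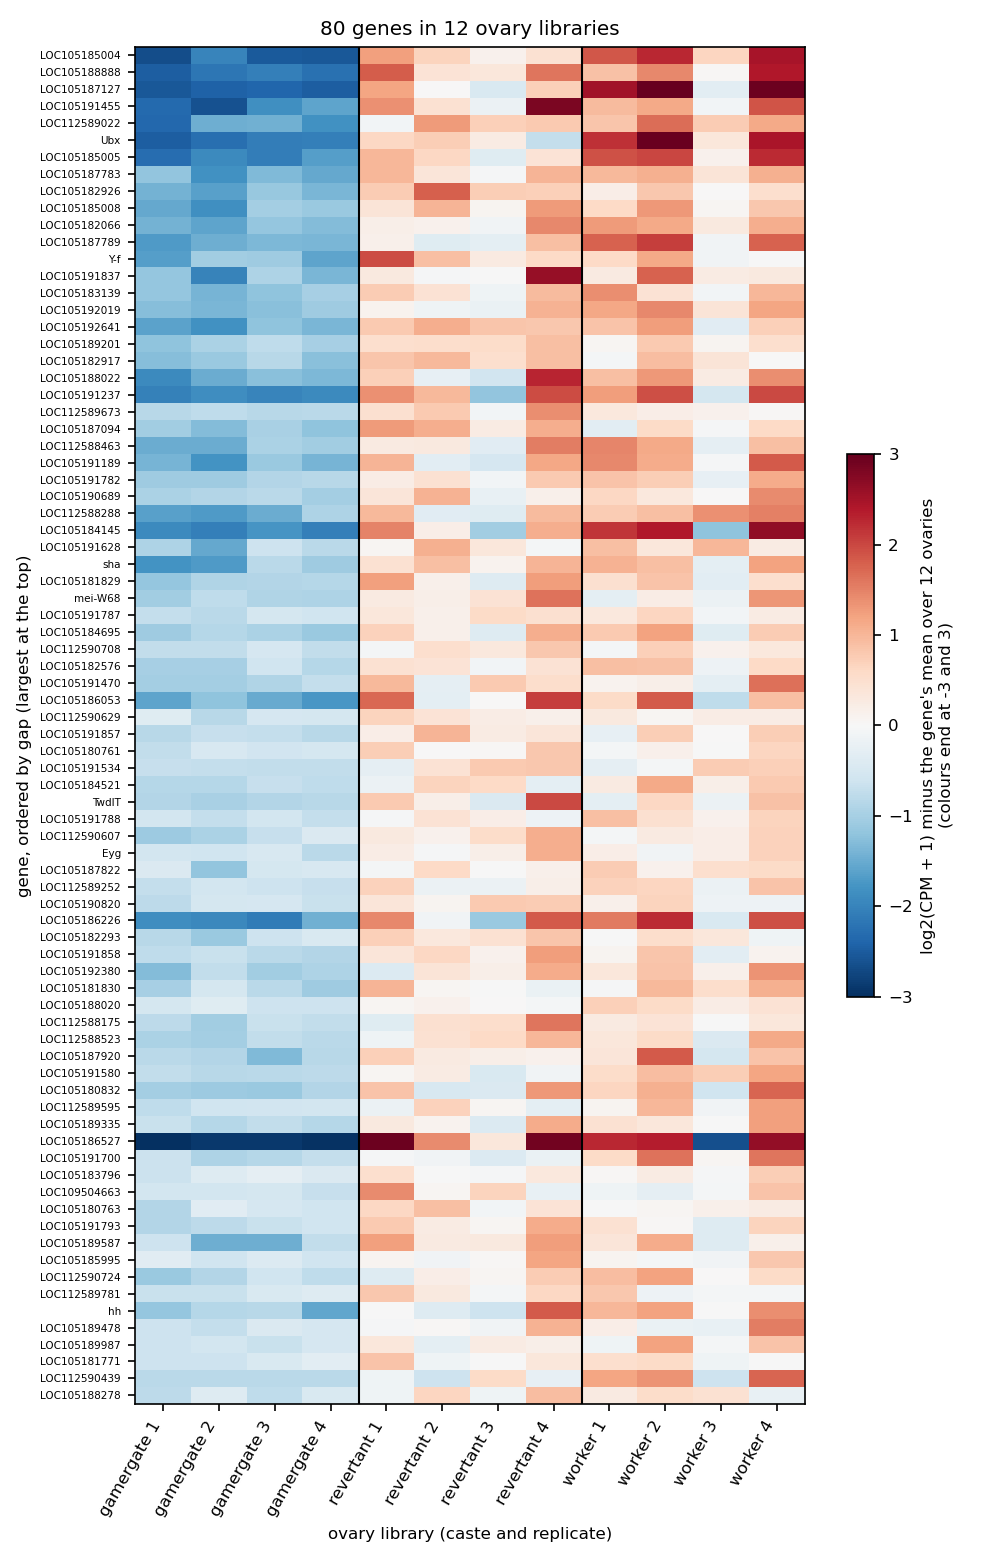
Level of each of the 80 genes (rows, by gap) in the 12 ovary libraries (columns: 4 gamergates, 4 revertants, 4 workers), as log2(CPM + 1) minus the gene's mean over all 12. The gamergate columns are blue throughout, as the rule requires. Among the other 8 columns worker 3 and revertant 3 are palest, and these held the lowest value of the 8 for 26 and 24 of the 80 genes.

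Summed over the 80 genes, gamergate ovaries held 114, 114, 148 and 137 CPM, revertant ovaries 1174, 749, 481 and 1278 CPM, and worker ovaries 1366, 1741, 446 and 1697 CPM. The genes thus took 0.0446% to 0.174% of the counts of a non-reproductive ovary. A pair of them, LOC105186527 and LOC105187127, made up 9.51% to 45.2% of that sum in the non-reproductive ovaries and 9.35% to 12.1% in the gamergate ones. The median gene differed by -1.46 between gamergates and workers and by -1.35 between gamergates and revertants on the log2(CPM + 1) scale, beside -0.13 and -0.09 over all genes. Both contrasts chose the genes, so these values describe them and test nothing.

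The 3 larger non-reproductive ovaries held less of these genes. Their mean was below that of the 5 smaller ones in 69 of the 80 genes, with a median difference of -0.53 on the log2(CPM + 1) scale, beside -0.17 over all genes that averaged 1 CPM or more. In 53 genes the lowest of the 8 libraries was one of these 3. Their high exu and cad and their library size move with this difference, and the part of either in it was not tested. Without these 3 libraries, the rule kept 49 of the 80 genes.

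A Hox gene led the genes that have a name. Hox genes encode homeodomain proteins that give body segments along the axis their identity, and in Drosophila Ultrabithorax (Ubx) specifies the posterior thorax and the anterior abdomen. Ubx had 3.23, 3.92, 4.61 and 4.68 CPM in gamergate ovaries, against 34.9, 38.2, 26.8 and 13.4 CPM in revertant and 107, 183, 28.6 and 128 CPM in worker ovaries. Mean levels were 4.11 ± 0.68 in gamergates, 28.3 ± 11.0 in revertants and 112 ± 64 CPM in workers (SD, n = 4 each), 27.2 times as high in workers as in gamergates and 6.89 times as high in revertants. In the brain it had 7 reads in all, each of them in a revertant. Revertant brains held 4115800 to 12917125 counts, against 1660576 to 1799316 in gamergate and 1339043 to 4926716 in worker brains. So few reads do not set the castes apart.

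The gene listed next to Ubx, LOC105188888, had the second largest gap (2.09). It showed 0.886, 1.31, 1.51 and 1.21 CPM in gamergate, 35.5, 12.7, 12.1 and 30.7 CPM in revertant and 18.2, 27.1, 9.71 and 53.7 CPM in worker ovaries. It had no read in any brain library, which over 49147511 brain counts allows a level of up to 0.061 CPM. No name was found for it in the sources used here.

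On the other side of Ubx lies Antp, a Hox gene of the thorax, which missed the brain limit with a mean of 1.61 CPM. Antp had 3.16, 3.36, 5.44 and 4.30 CPM in gamergate, 41.5, 19.9, 19.0 and 20.6 CPM in revertant and 67.3, 127, 21.7 and 102 CPM in worker ovaries. It is not one of the 80, but its gap of 1.63 lies beside those of its neighbours. By edgeR's quasi-likelihood test it was lower in gamergates than in workers (log2 fold change -4.03 ± 0.48 SE, adjusted p = 0.00021) and than in revertants (-2.49 ± 0.31, adjusted p = 0.00031). Across all genes tested, 28.9% were called lower and 29.4% higher in gamergate than in worker ovaries, and 29% lower and 28.7% higher in gamergate than in revertant ovaries. Of the calls against workers, 50.4% were higher in gamergates, and 39.2% were when counts were scaled by library total alone, a scaling that moved the median of all genes to -0.18.

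The Hox genes and cofactors outside the 80 did not share one direction. The list holds 5 of them, Antp, Dfd, exd and hth, and counts the homeobox gene cad too. In either comparison 2 fell in gamergates, Antp and exd, and 1 rose, Dfd. The head Hox gene Dfd was higher, with 17.9, 19.4, 19.5 and 14.4 CPM in gamergate, 0, 3.52, 3.9 and 3.36 CPM in revertant and 6.25, 1.72, 7.45 and 5.37 CPM in worker ovaries (1.84 ± 0.36 over workers, edgeR adjusted p = 0.00247). That call was lost when library size class was added to the model (adjusted p = 0.0704). Of the genes for Hox cofactors, exd fell by 0.73 ± 0.14 on the log2 scale against workers (edgeR adjusted p = 0.00196), and hth had a log2 fold change of -0.03 ± 0.30 and did not pass the test.

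**Figure D2:**
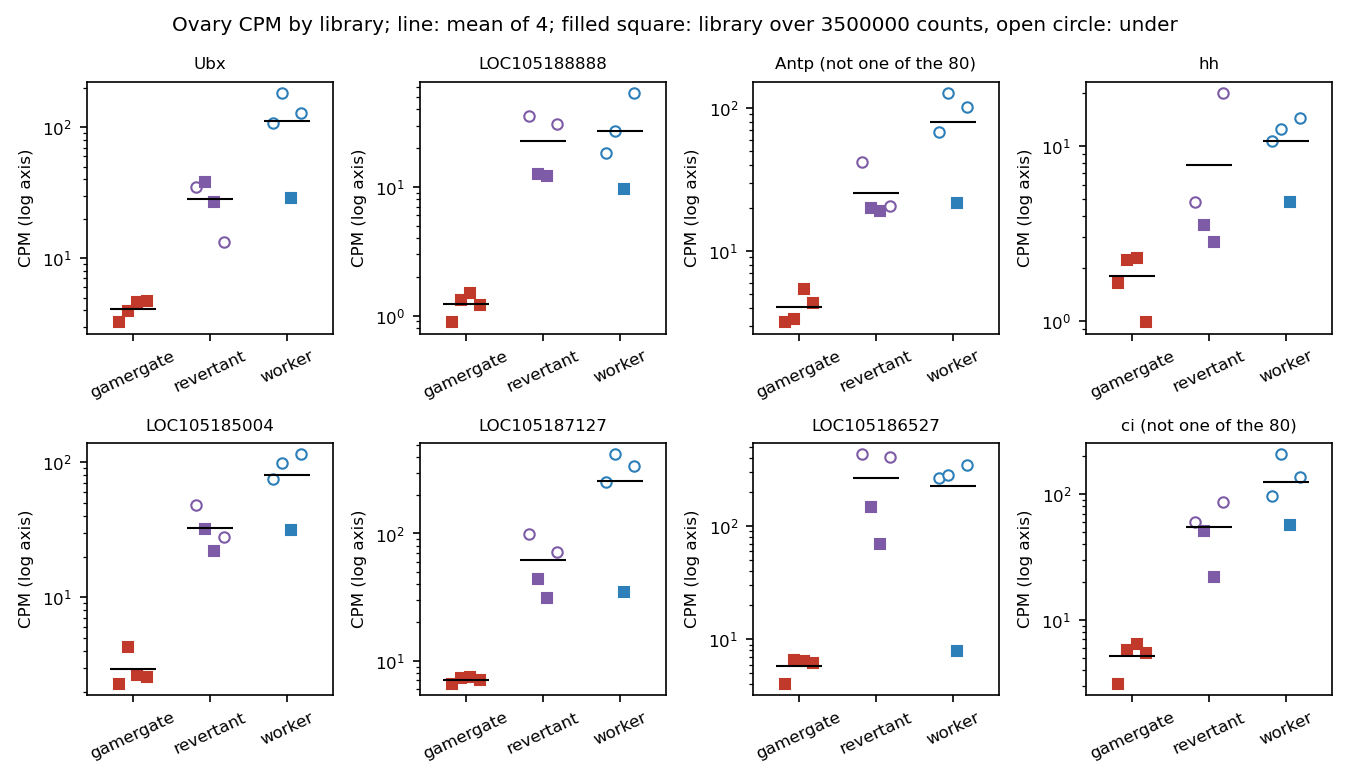
CPM on a log axis in each ovary library, by caste, for 6 of the 80 genes and for Antp and ci, which are not among them; lines are means of 4, filled squares are libraries over 3500000 counts and open circles those under. In Ubx, LOC105185004 and LOC105187127 the 3 smaller worker libraries lie above all revertants, and worker 3 lies among them. In LOC105186527 worker 3, at 7.98 CPM, lies next to the gamergates.

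Hedgehog (hh) encodes the secreted ligand that, in the germarium of Drosophila, is sent by the cap cells to the somatic escort and follicle stem cells. The ligand is bound by patched (ptc), which frees smoothened (smo) and lets the transcription factor cubitus interruptus (ci) act. At 1.65, 2.24, 2.30 and 0.980 CPM in gamergate, 4.81, 3.52, 2.84 and 20.1 CPM in revertant and 10.7, 12.5, 4.79 and 14.5 CPM in worker ovaries, hh lay near the limit of the rule, with a gap of 0.22. Its brain reads numbered 6.

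The rest of the pathway was measured above the brain limit. Of 8 pathway genes outside the 80, 4 fell and 1 rose in gamergates against workers, and 4 fell and 2 rose against revertants. The largest fall was that of ci, with 3.10, 5.79, 6.41 and 5.43 CPM in gamergate, 60.1, 50.7, 22.0 and 86.3 CPM in revertant and 96.7, 207, 57.2 and 137 CPM in worker ovaries (log2 fold change -4.38 ± 0.39 over workers, edgeR adjusted p = 6.5e-05, and -3.30 ± 0.42 over revertants, adjusted p = 0.00031). The receptor ptc fell by 1.00 ± 0.14 against workers (edgeR adjusted p = 0.00045). Su(fu), which holds ci back in the cytoplasm, rose by 1.38 ± 0.20 (edgeR adjusted p = 0.00054).

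No Wnt pathway gene is among the 80, and none could be, since none was under the brain limit, although 5 had a gap above 0. Of 8 measured, 4 fell and none rose in gamergates against workers, led by the receptor gene fz2 (log2 fold change -2.88 ± 0.24, edgeR adjusted p = 5.3e-05), with 12.0 to 18.7 CPM in gamergate, 61.2 to 233 CPM in revertant and 76.3 to 178 CPM in worker ovaries. The ligand Wnt10 fell by 2.35 ± 0.42 (edgeR adjusted p = 0.00143). Of the eye-field genes, which in the fly build the eye and also act in other organs, Eyg is one of the 80, with 0.679 to 1.09 CPM in gamergate, 1.89 to 5.27 CPM in revertant and 1.72 to 3.76 CPM in worker ovaries. Its partner in the list so, a homeobox gene, fell by 2.35 ± 0.33 against workers (edgeR adjusted p = 0.00044), and eya did not pass the test (-0.07 ± 0.24).

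The gene with the largest gap, LOC105185004, had 2.28, 4.30, 2.64 and 2.56 CPM in gamergate, 48.1, 32.1, 21.8 and 27.8 CPM in revertant and 74.4, 99.1, 31.5 and 114 CPM in worker ovaries. Its model overlaps that of LOC105185005, another of the 80, and since the counting of overlapping genes is not given in the sources used here their reads may not be independent. LOC105185005 had 0.760, 1.31, 1.05 and 1.73 CPM in gamergate, 16.2, 12.2, 5.68 and 10.5 CPM in revertant and 31.5, 33.6, 8.51 and 39.7 CPM in worker ovaries. In both genes worker 3 was the lowest worker and lay within the range of the revertants.

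LOC105187127 had 6.58, 7.28, 7.5 and 7.01 CPM in gamergate ovaries, against 99.8, 43.6, 31 and 71.4 CPM in revertant and 252, 418, 34.4 and 338 CPM in worker ovaries. The gamergate values span less than 1 CPM, whereas the workers differ more than 10-fold among themselves. Of the 8 non-reproductive ovaries, the 3 larger libraries were the lowest.

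LOC105186527 took more reads than any other of the 80. It had 4.05, 6.54, 6.49 and 6.18 CPM in gamergate, 431, 148, 69.9 and 413 CPM in revertant and 269, 285, 7.98 and 349 CPM in worker ovaries. Mean levels were 45.7 times as high in revertants and 39.2 times as high in workers as in gamergates, yet the gap was 0.25, because worker 3, with 60 reads, lay just above the highest gamergate. Over the 8 non-reproductive ovaries its SD of 1.90 on the log2(CPM + 1) scale was the largest of the 80. The next largest were those of LOC105184145 (1.51), LOC105187127 (1.5), LOC105186226 (1.28) and Ubx (1.28), and in LOC105184145 worker 3 and revertant 3, at 1.46 and 1.77 CPM, were again the lowest.

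Other genes with many reads were steadier. LOC105182576 had 28.3, 28.2, 37.9 and 31.1 CPM in gamergate, 79.4, 76.4, 54.1 and 77.7 CPM in revertant and 108, 106, 51.9 and 88.0 CPM in worker ovaries, an SD of 0.39 over the non-reproductive libraries. LOC105183139 had 12.9 to 17.2 CPM in gamergate, 32.6 to 69.5 CPM in revertant and 33.5 to 95.5 CPM in worker ovaries, and LOC105191628 had 7.47 to 15.0, 22.5 to 50.2 and 28.4 to 48.1 CPM. The difference in these genes was smaller than in those above, at 2.29 to 4.14 times the gamergate mean.

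The smallest spread belonged to genes with few reads. LOC112590629 (SD 0.18), LOC105191787 (0.23), LOC105188020 (0.28), LOC105183796 (0.29) and LOC105189201 (0.30) varied least over the non-reproductive ovaries. Only LOC105189201, with 0.760 to 1.42 CPM in gamergate, 4.81 to 6.71 CPM in revertant and 3.27 to 6.03 CPM in worker ovaries, had more than 3 reads in each of them. On this scale the added pseudocount of 1 CPM narrows the spread of the others.

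Of the remaining genes with large gaps, LOC105191455 (gap 1.42) had 0.443, 0.187, 1.05 and 1.43 CPM in gamergate, 18.0, 8.93, 5.50 and 50.8 CPM in revertant and 13.1, 15.1, 5.85 and 25.8 CPM in worker ovaries. LOC112589022 (gap 1.37) had 0.949 to 2.64 CPM in gamergate, 8.42 to 23.0 CPM in revertant and 15.8 to 31 CPM in worker ovaries. LOC105182926 (gap 1.14), LOC105185008 (1.08), LOC105187783 (1.15), LOC105182066 (1.06) and LOC105187789 (0.99) complete the 12 largest. In LOC105182926 and LOC105185008 the revertant mean was 7.17 and 5.52 times the gamergate mean, and the worker mean was 4.38 and 5.46 times.

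The other genes with a symbol carry roles known from Drosophila or from the family name, and most were measured by few reads. Y-f is a member of the yellow family, whose fly counterpart converts dopachrome during pigment formation. It had 0.506, 1.31, 1.26 and 0.603 CPM in gamergate, 17.4, 7.85, 4.79 and 6.23 CPM in revertant and 6.25, 9.48, 3.46 and 3.76 CPM in worker ovaries. Of the 6 other yellow genes measured, 2 could be tested against workers, Y-e3 and yellow-b, and neither passed. Against revertants yellow-b fell by 1.66 ± 0.57 (edgeR adjusted p = 0.0319). In contrast, yellow-g and yellow-g2, which in flies are made by follicle cells for the eggshell, reached 328 and 150 CPM in single gamergate ovaries and stayed under 1 CPM in every revertant and worker ovary. In the remaining gamergate ovaries yellow-g had 0.167 to 127 CPM.

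The gene sha (shavenoid), which shapes the hairs of epidermal cells in flies, had 1.90, 2.05, 4.73 and 3.77 CPM in gamergate, 12.6, 17.7, 9.76 and 19.2 CPM in revertant and 19.6, 17.7, 7.18 and 22.0 CPM in worker ovaries. TwdlT, of the Tweedle family of cuticle proteins, had 0.187 to 0.302 CPM in gamergate, 0.710 to 8.15 CPM in revertant and 0.893 to 3.22 CPM in worker ovaries. Of 17 other cuticle protein genes 5 could be tested against workers, of which 2 fell and 1 rose. CPR14 fell by 2.15 ± 0.64 (edgeR adjusted p = 0.0173), and all 3 calls were lost when library size class was added to the model, where CPR14 had a log2 fold change of -0.23 ± 0.81 (edgeR adjusted p = 0.833).

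The gene mei-W68 encodes the enzyme that cuts DNA to start meiotic recombination in flies. It had 0.127, 0.374, 0.251 and 0.226 CPM in gamergate, 1.80, 1.62, 2.13 and 6.23 CPM in revertant and 0.893, 1.72, 1.06 and 4.83 CPM in worker ovaries, from 3 to 13 reads in a revertant or worker library and 2 to 6 in a gamergate one. Of 5 germ line genes outside the 80, orb, which controls translation in the oocyte, fell by 0.91 ± 0.22 against workers (edgeR adjusted p = 0.00629), and the others did not pass. Without worker 3, exu and BicC were called higher in gamergates (log2 fold changes 1.95 and 2.17, edgeR adjusted p = 4.27e-05 and 7.97e-06).

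Another 3 of the genes have a protein name but no symbol. LOC105192019, named as a zinc metalloproteinase of the nas-14 type, had 0.0633, 0, 0.0837 and 0.226 CPM in gamergate ovaries, 1.24 to 4.32 CPM in revertant and 2.39 to 6.03 CPM in worker ovaries. LOC105181830, named as a chymotrypsin-elastase inhibitor, had 0.0754 to 0.560 CPM in gamergate, 0.959 to 3.61 CPM in revertant and 1.19 to 3.76 CPM in worker ovaries. LOC105187094, with a coiled-coil and a C2 domain in its name, had 0.560 to 0.963 CPM in gamergate, 3.55 to 8.42 CPM in revertant and 2.08 to 4.83 CPM in worker ovaries.

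Sheath muscle is part of the ovary, and most of the muscle genes measured were called lower in gamergates. Which muscle their reads came from was not tested. The 10 muscle genes, among them Mhc and sls, summed to 410 to 460 CPM in gamergate, to 1127 to 3886 CPM in revertant and to 1000 to 8379 CPM in worker ovaries. In the 3 larger non-reproductive libraries the sum was 1445, 1127 and 1000 CPM, against 2816 to 8379 CPM in the 5 smaller ones, the same split as in the 80 genes. All 10 were called lower in gamergates than in workers (median log2 fold change -3.39), beside 28.9% of all genes, and 7 of 9 tested than in revertants (median -2.03), beside 29%. Against revertants Tm1 (log2 fold change -0.42 ± 0.18, edgeR adjusted p = 0.0658) and Mf (0.17 ± 0.21, edgeR adjusted p = 0.488) did not pass. None of the 10 was under the brain limit, so none could be among the 80, although 8 had a gap above 0. The part of the muscle genes in the values of the 80 was not tested. Nervous genes summed to 25.2 to 32.1 CPM in gamergate, to 55.4 to 81.8 CPM in revertant and to 49.7 to 129 CPM in worker ovaries, with VGlut at 0 in 10 of 12 libraries.

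Many of the 80 lie side by side, a property the rule did not use. In the order of genes listed for the RefSeq assembly Hsal_v8.6, 24 of the 80 (30%) lay within 2 places of another one, beside 68 of 2636 other genes under the brain limit (2.58%) and 155 of 9916 genes above it (1.56%) that lay as near to one of the 80. They formed 10 groups, of which 8 were pairs. The counts rest on an earlier assembly version than this list. Scaffold names are not given in it, so a change of scaffold was taken only where the start position dropped back. Of the 80, 17 overlap another gene model, and for these a shared read cannot be told from a separate one.

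The longest group holds LOC105191793, LOC105191782, LOC112588175, LOC105191788 and LOC105191787. Mean levels were 0.607, 1.30, 0.177, 0.0631 and 0.106 CPM in gamergate, 3.09, 4.81, 2.43, 0.796 and 1.30 CPM in revertant and 2.17, 6.25, 1.47, 1.45 and 1.16 CPM in worker ovaries, in that order of genes. Between them lie LOC112588173, whose castes overlap (gap -0.76), and LOC105191792 (gap 0.40), which passed the brain limit by little (1.29 CPM). These are low levels. LOC112588175 and LOC105191788 had 1 read in the revertant or worker library with the fewest, and no read in at least 1 gamergate library.

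The second such group joins LOC105192380, mei-W68 and LOC112590708. Mean levels were 0.471, 0.244 and 0.0419 CPM in gamergate, 2.91, 2.95 and 1.23 CPM in revertant and 3.92, 2.13 and 1.05 CPM in worker ovaries. The next gene in the list, LOC105192379, was measured at 135 CPM in the brain and had a gap of 1.12.

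Among the pairs, LOC105191857 and LOC105191837 lie between Gasp and Cpap3-d, genes for chitin-binding proteins of the cuticle. LOC105191837 had 1.14, 0.187, 1.51 and 0.830 CPM in gamergate, 4.81, 3.65, 3.73 and 28.3 CPM in revertant and 4.76, 15.1, 4.65 and 4.83 CPM in worker ovaries, and its model overlaps that of Cpap3-d. Gasp and Cpap3-d themselves did not separate the castes, with gaps of -0.25 and -0.58. Their means were nevertheless lower in gamergates, at 0.362 CPM for Gasp and 0.729 CPM for Cpap3-d, against 1.55 and 1.23 CPM over the revertant and worker ovaries. The gap chose the pair, and its difference from these neighbours was not tested.

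LOC105182926 and LOC105182917 follow one another, and in both the revertant mean was above the worker mean (18.9 ± 8.3 against 11.5 ± 3.1 CPM and 3.54 ± 0.62 against 2.34 ± 1.10 CPM, SD, n = 4 each). LOC105187783 and LOC105187789 likewise are neighbours, with 0.304 and 2.25 CPM in gamergate, 4.56 and 9.30 CPM in revertant and 5.61 and 25.8 CPM in worker ovaries on average. LOC105191455 and LOC105191628 are parted by a tRNA gene, LOC105181830 and LOC105181829 by a lncRNA gene, and Y-f is followed by LOC105180763 (gap 0.24).

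**Figure D3:**
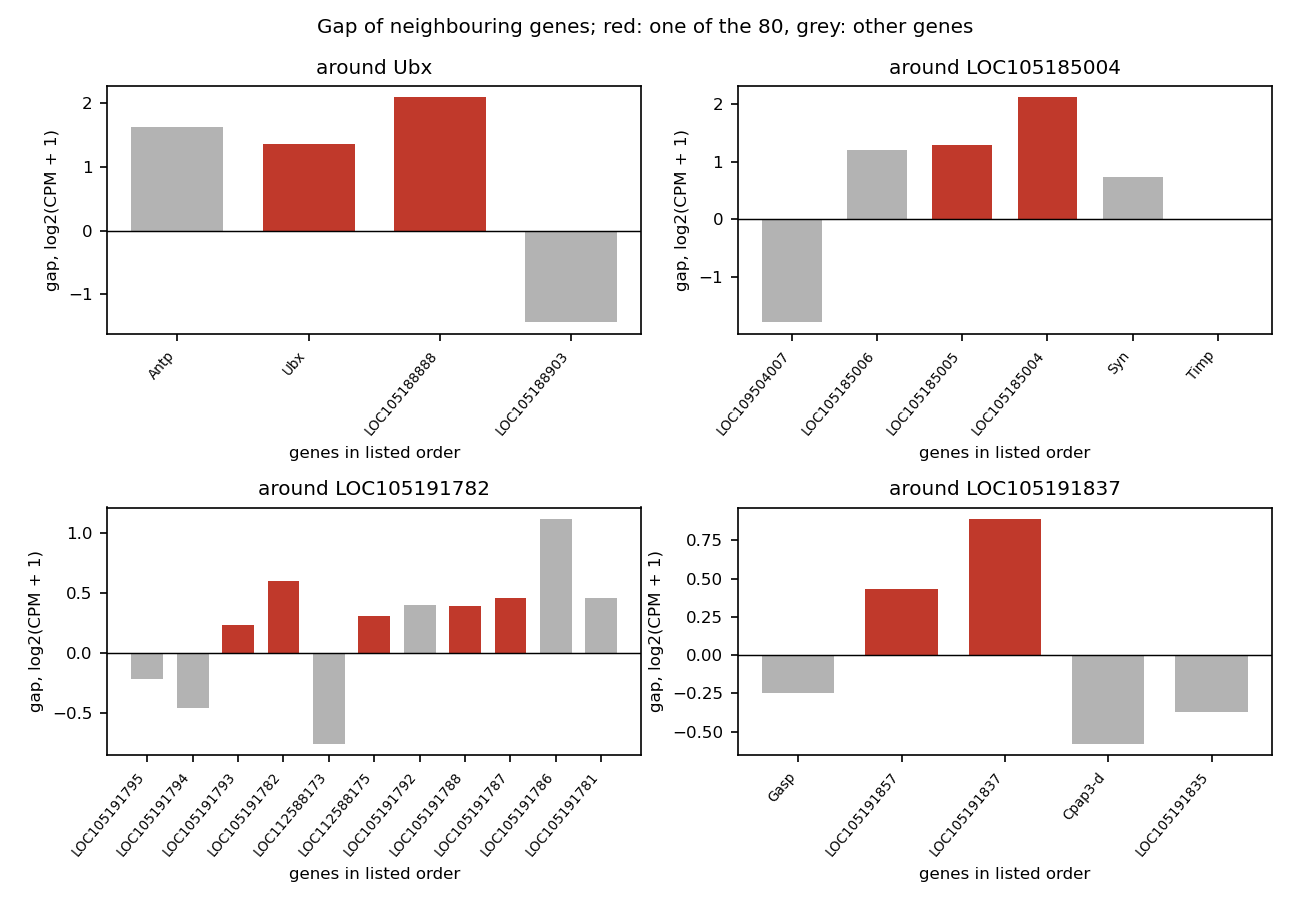
Gap in log2(CPM + 1) of genes in their listed order around 4 groups, with the 80 genes in red and other genes in grey. Around Ubx the gaps of Antp, Ubx and LOC105188888 are 1.63, 1.35 and 2.09, and the next measured gene, LOC105188903, has -1.44. Around LOC105191837 the genes on either side lie below 0.

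The comparison of revertants with workers did not enter the rule in this form, since the rule took both castes together. Because it kept only genes in which every revertant lay above every gamergate, genes that stayed at the gamergate level could not enter, and some return was fixed by the choice. The comparison therefore asks only how the levels of revertants and workers differed within the 80. Of the 80, 40 passed the filter on low counts, and none was called by edgeR's quasi-likelihood test at an adjusted p under 0.05, as for 0% of all 8667 genes tested. At an unadjusted p under 0.05 there were 7 of 40 (17.5%), beside 377 of 8667 (4.35%). DESeq2 also called none of the 40, with 29 calls over all genes. The median log2 fold change, revertant over worker, was -0.22 over the 40 and -0.01 over all genes, and it was positive in 15 of the 40.

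Ubx had the lowest p of the 40 (log2 fold change -1.85 ± 0.50 SE, unadjusted p = 0.00525, edgeR adjusted p = 1). It was followed by LOC105185004 (-1.21 ± 0.36, edgeR unadjusted p = 0.0091) and LOC105187127 (-1.99 ± 0.64, edgeR unadjusted p = 0.013). In each of the 3, every revertant lay below the 3 smaller worker libraries, and worker 3 lay within the range of the revertants. The next of the 7 were LOC105187789 (-1.40 ± 0.48), LOC105185005 (-1.25 ± 0.45), LOC105182926 (0.82 ± 0.33) and LOC105187094 (0.94 ± 0.40). Both with a positive value averaged higher in revertants. Antp, outside the 80, had a log2 fold change of -1.56 ± 0.47 (edgeR unadjusted p = 0.0095).

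**Figure D4:**
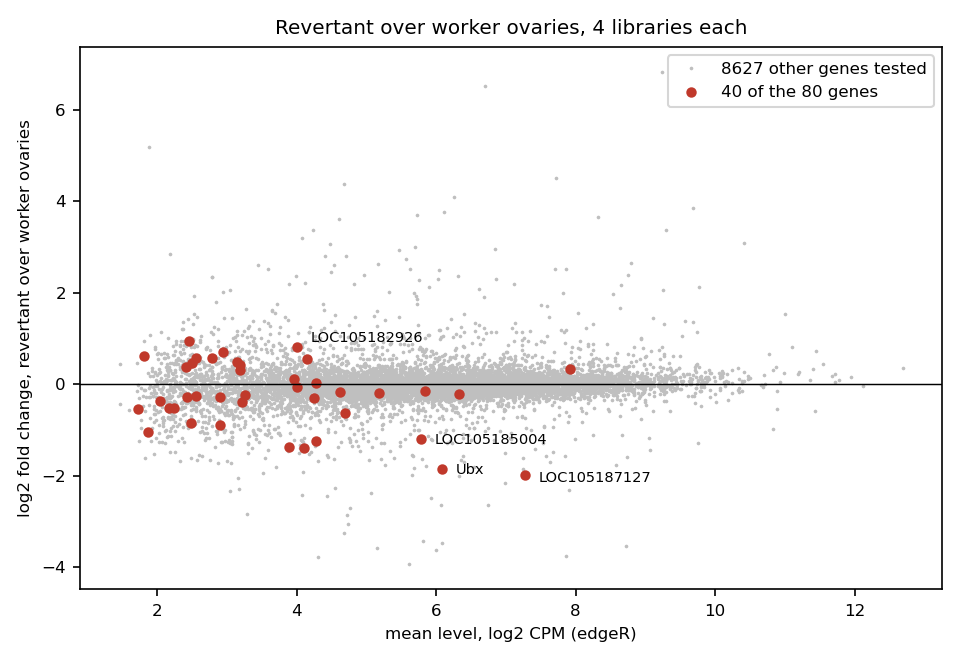
Log2 fold change of revertant over worker ovaries against mean log2 CPM, from edgeR, for 40 of the 80 genes (red) and the other genes tested (grey), 4 libraries per caste. The named points are LOC105187127 (-1.99), Ubx (-1.85), LOC105185004 (-1.21) and LOC105182926 (0.82), and none passed the adjusted threshold.

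These values moved with the model. In one fit of all 12 ovaries 53 of the 80 could be tested, with a median of -0.19 and none called. With a term for libraries over 3500000 counts added to that fit, the median of the 53 was 0.10 and none was called, while 12 (22.6%) had an unadjusted p under 0.05 beside 14.1% of all genes. The same libraries differ in exu, cad and muscle genes, so the term does not stand for library size alone. In that fit the log2 fold change of Ubx was -1.55 ± 0.50 (edgeR adjusted p = 0.191) and that of LOC105187127 -1.24 ± 0.35 (edgeR adjusted p = 0.13). A fit of only the 5 libraries under 3500000 counts, revertants 1 and 4 and workers 1, 2 and 4, tested 42 of the 80. LOC105187127 was the 1 gene of these called (-1.84 ± 0.27, edgeR adjusted p = 0.0491). Of all 8702 genes tested there, 40 were called higher and 3 lower in revertants. Without worker 3 the median of the 40 was -0.38, and without revertant 4 that of 45 was -0.44.

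Counted by library, 3 of the 80 genes were lower in all revertant than in all worker ovaries, as were 1.13% of all genes. LOC105191580 had 1.20, 1.49, 0.532 and 0.959 CPM in revertant and 2.08, 3.02, 2.53 and 3.76 CPM in worker ovaries. LOC105191700 had 0.710 to 1.20 CPM in revertant and 1.33 to 6.03 CPM in worker ovaries, and LOC105188020 had 0.479 to 0.676 CPM in revertant and 0.798 to 1.49 CPM in worker ovaries. All have fewer than 3 reads in at least 1 library. None of the 80 was higher in all revertants than in all workers, but the share of all genes that were was not counted.

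The brain values chose the genes too, and they show a low level rather than absence. Only 4 of the 80, LOC105188888, LOC105187822, LOC112589595 and LOC105189335, had no read in any brain library. The median over all 80 was 27.5 reads in the 12 libraries together, and 53 genes reached 1 CPM in at least 1 library. The most reads were found for LOC105185004 (65), sha (64) and LOC105191858 (60), a number shared by LOC112589781. Mean CPM was higher in gamergate ovaries than in gamergate brains in 53 of the 80. The rule chose genes that are low in both, and the floor of 3 counts is 1.67 to 1.81 CPM in these brains. Which of the tissues was higher thus rests on few reads for many genes.

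In sum over the 80 genes, gamergate brains held 24.9, 23.5, 27.2 and 24.5 CPM, revertant brains 43.5, 49.9, 54.3 and 52.5 CPM, and worker brains 45.7, 25.0, 54.8 and 31.4 CPM. The 6 lowest sums were those of the gamergates and of workers 2 and 4, which are the brain libraries under 3500000 counts. The part of library size in these sums was not tested.

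**Figure D5:**
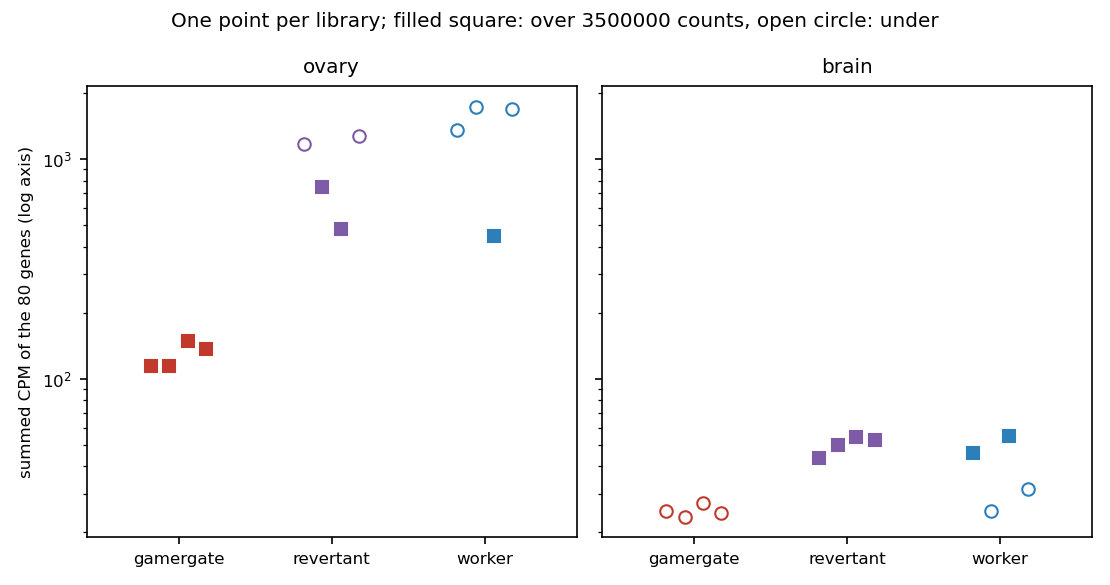
Summed CPM of the 80 genes on a log axis in each ovary and brain library, by caste, with filled squares for libraries over 3500000 counts and open circles for those under. In the ovary the gamergates lie at 114 to 148 CPM and all others at 446 CPM or more. In the brain the libraries under 3500000 counts lie at 23.5 to 31.4 CPM and the larger ones at 43.5 CPM or more, whatever the caste.

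None of the 80 passed the filter on low counts in the comparison of gamergate with worker brains, which therefore gave no test of them. Without a filter 71 could be fitted, of which none was called, as against 0.836% of all genes, and 7 (9.86%) had an unadjusted p under 0.05, beside 16.7% of all genes. DESeq2 was run with the filter and gave none of them a value. The median log2 fold change of the 71 was -1.02, beside -0.02 over all genes, and 20 of 71 were positive. When library size class was added to a joint fit of the 12 brain libraries, an alternative chosen after seeing the data, the median was 0.00 and 35 of 71 were positive. All gamergate brains are in the smaller class, and whether a difference of a given size could have been detected was not tested.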

How the data were processed

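Brains without optic lobes and whole ovaries of single ants were sequenced as polyA, strand-specific libraries. The authors trimmed reads with Trimmomatic and aligned them with STAR (2.5.3a in the submitters' processing notes) to the Harpegnathos genome. They deposited unnormalized counts of reads per gene, 1 table per tissue. The counter, annotation, use of strand and treatment of multiply aligned reads are not given in the sources used here, so counts of overlapping or near-identical genes are uncertain. Deposited counts of 24 libraries were used, with 0 columns unmatched, and 12 fat body libraries were not analysed here.

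CPM was count over column total. Pairs of castes were fitted separately with edgeR 4.0.16 (R 4.3.3): TMM, filterByExpr, quasi-likelihood test, Benjamini-Hochberg adjustment over all genes tested, threshold 0.05. SE is the fold change over the root of F. The test was checked on simulated data. Alternatives were DESeq2 1.42.0, the likelihood ratio test, other scaling and filters, one fit of 12 libraries, library size class, replicate block and leaving out each library. Each library is 1 ant. Floors (3 counts) and the level that a count of 0 allows cover counting error only, whereas SD and SE also hold differences between ants. The reads carry no molecular identifiers.

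The 80 genes and all gene lists were chosen with earlier results of these data known. There were 12 lists by symbol, made after the members were seen, and 16 by protein name. Symbols come from RefSeq Hsal_v8.6, which matched 12632 of 12654 genes and is another assembly version than the one the reads were aligned to. Its coordinates were used only for gene order and overlaps and are not printed. Protein names come from the study's supplement, from its lists of genes that differed between castes, so lists by protein name hold only such genes. Named were the 12 largest gaps, the 10 highest mean CPM over worker and revertant ovaries, list members, genes beside the limit, the 3 lowest p between revertants and workers, the 5 largest and 5 smallest SD, the 3 with most brain reads and neighbours. Outside the 80, genes were named from up to 3 a list with the largest fold change between gamergate and worker ovaries, and not all of these are given. Genes named beyond this rule were chosen after their values were seen.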

Additional observations from a re-analysis of the deposited data

Results flagged for a closer look

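Of 137 groups of 4 ovary libraries, 13 held 1 library far from the other 3 by Dixon's test, over 46 of the 80 genes. The threshold is set to flag about 1 in 20 groups by chance. The 46 genes were named partly for their values and spread in these libraries, so that rate is no standard for them. Worker 3 was the low one in 5 of them. LOC105186527 had 7.98 CPM in worker 3, against 269 to 349 CPM in the other workers. LOC105184145 had 1.46 CPM there, against 24.1 to 34.9 CPM. LOC105187789 had 7.31 CPM, against 29.5 to 36.6 CPM. LOC105185005 had 8.51 CPM, against 31.5 to 39.7 CPM, and LOC105187783 had 3.59 CPM, against 5.95 to 6.46 CPM. Worker 3 is also the worker ovary over 3500000 counts, and the part of this was not tested.

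Among revertants, LOC105191837 stood at 28.3 CPM in revertant 4, against 3.65 to 4.81 CPM in the others, and among workers at 15.1 CPM in worker 2, against 4.65 to 4.83 CPM. LOC105182926 reached 31.4 CPM in revertant 2, against 14.4 to 15.0 CPM. LOC105182576 had 54.1 CPM in revertant 3, against 76.4 to 79.4 CPM, and LOC105189201 had 6.71 CPM in revertant 4, against 4.81 to 4.97 CPM.

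Among gamergates, LOC105186527 had 4.05 CPM in gamergate 1, against 6.18 to 6.54 CPM in the others. At the limit of detection, LOC112590708 had 0.167 CPM in gamergate 3 and 0 in the other 3, and LOC105181829 had 0 in gamergate 1, against 0.187 to 0.226 CPM.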

How the results depend on the processing

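Of the single-gene values recomputed under the alternatives, 614 kept their side of the threshold, 17 passed it newly and 16 no longer passed it. None that passed in the main fit or the alternative changed direction. For values that passed in neither, direction was not compared. Fewer of the 80 genes were kept when the rule changed: 41 and 45 with a brain limit of 0.5 and 2 CPM, 27 with every brain library under 1 CPM, 30 after thinning, 51 with a difference of means, and 49 without the 3 larger worker and revertant ovaries, an alternative chosen after seeing the data. Leaving out 1 library kept 65 (without worker 3) to 78.

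Between revertant and worker ovaries edgeR's quasi-likelihood test called 0 genes, DESeq2 29, the likelihood ratio test 23, library size class as a model term 63, and the 5 libraries under 3500000 counts 43, of which 1 is among the 80. Leaving out 1 library gave 0 to 2 genes, of which 2 without revertant 4. Between gamergate and worker brains 89 genes were called, with 332 by DESeq2, 367 by the likelihood ratio test, 351 in one fit of 12 libraries, 244 with library size class, 224 with that and no filter, 401 in libraries under 3500000 counts, and 24 (without gamergate 1) to 850 (without worker 4) when 1 library was left out. The causes were not tested.

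Replicate numbers did not settle whether revertant and worker ovaries were paired. Deviations of those with the same number correlated across genes at 0.26, -0.18, 0.49 and 0.42. Revertants 3 and 4 correlated best with the worker of their own number, and revertants 1 and 2 did not. Libraries numbered 1, 3 and 4 shared a library size class and those numbered 2 did not, so pairing cannot be told apart from size class. In the other comparisons such correlations ran from -0.13 to 0.12. With the replicate number as a block, 0 genes were called between revertant and worker ovaries and 51 between the brains. None of the 80 genes passed the low-count filter in the brain, and 71 were fitted without it.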

Other observations

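Genes outside the 80 were also grouped by protein name and counted by edgeR's quasi-likelihood test in gamergate against worker ovaries, where 28.9% of all genes tested were called lower and 29.4% higher (median log2 fold change -0.01). Protein names were available for 3328 genes only, those in the study's lists of genes that differed between castes in brain, fat body or ovary. The groups were thus chosen partly by caste differences in these same libraries. The shares over all genes are therefore no standard for them, and no test compared a group with other genes. Of 28 genes of the Wnt, FGF, BMP, Notch, Hedgehog and EGF pathways, 15 fell and 2 rose (median -0.96). Of 52 genes for homeobox and other transcription factors, 26 fell and 7 rose (median -0.56), and of 62 for matrix and adhesion proteins 33 fell and 9 rose (median -0.88). Of 85 for ion channels and transporters 36 fell and 12 rose (median -0.41). Of 9 genes for receptors of hormones, peptides and amines 6 fell and none rose (median -1.05), and of 10 for chemoreceptors and odorant-binding proteins 5 fell and 2 rose (median -0.87).

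Of 6 cuticle and tracheal genes 5 fell and none rose (median -1.91). Of 60 for proteases and their inhibitors 22 fell and 16 rose (median -0.29), and of 283 for oxidative, lipid and sugar enzymes 81 fell and 78 rose (median -0.03). Of 558 genes named as uncharacterized 232 fell and 124 rose (median -0.44).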
